A study of Arabidopsis thaliana with 12 samples.

Results

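AT1G24360 and AT1G08510 encode enzymes of fatty acid synthesis in the plastid, the ketoacyl-acyl carrier protein reductase (KAR) and the acyl carrier protein thioesterase FATB. Their transcript levels were compared between the prors1 mutant of Arabidopsis thaliana and wild-type (WT) plants of the same ecotype, Columbia 0. According to the labels the mutant lacks a prolyl-tRNA synthetase, which loads proline onto its transfer RNAs for translation. Total RNA from 6 prors1 and 6 WT samples, numbered 1 to 6 in each genotype, was measured on single-channel arrays. The sources used here give no tissue, age, growth conditions or prors1 allele, nor do they say whether the samples came from separate plants, so p-values cover a spread between samples that may be technical only. The genes were chosen by locus, as probes that the platform annotation assigns to that locus alone. This gave 1 probe for each gene, that is 2 of the 691 loci with a single-gene probe among 3439 probes. A further probe that lists FATB together with other genes was not used.

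Plastids build fatty acids by extending an acyl chain bound to acyl carrier protein through repeated rounds of condensation, reduction, dehydration and a second reduction. KAR carries out the first reduction of each round, with NADPH as the reductant, a step that every round of extension requires. Thioesterases end the process by cutting the chain from its carrier, and FATB prefers saturated chains such as palmitate. In Arabidopsis, saturated chains released by FATB feed surface waxes and sphingolipids made outside the plastid.

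Both probes lay below the array median in every sample, and the arrays of the 2 genotypes differed as a whole. Array medians lay between 0.250 and 0.444 in prors1 and between 0.135 and 0.169 in WT on the authors' intensity scale, which ends near 100, and 6.25% to 9.19% of probes in prors1 and 10.7% to 11.5% in WT were listed at exactly 0. A deposited value can therefore be higher in prors1 while the gene's place among the probes of its array is lower, so both readings are given. For the tests, arrays were quantile-scaled, values below 0.0467 (-4.42 on the log2 scale) were raised to that floor, and all 3303 features above the floor on at least 1 array were fitted with limma. Of these, 42.8% were called at an adjusted p under 0.05, 23.2% lower and 19.6% higher in prors1. Of 4 leaf markers, the antenna gene LHB1B2 and the Calvin cycle gene PRK had single-gene probes, and none of the markers of root, seed or senescence had one. Their deposited intensities were 16.1 to 19.8 and 1.37 to 1.66 in prors1 against 29.4 to 35.3 and 2.14 to 2.75 in WT. After scaling, the differences were -0.53 (adjusted p = 0.00324 in limma) and -0.97 (adjusted p = 4.64e-05). By place on the array the genotypes overlapped for LHB1B2, with prors1 sample 3 at percentile 99.51 and WT sample 1 at 99.48.

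KAR was lower in prors1 relative to the other probes of the array, although its deposited intensity was higher on most prors1 arrays. The deposited intensities were 0.137, 0.189, 0.267, 0.300, 0.0666 and 0.158 in prors1 samples 1 to 6, against 0.0947, 0.104, 0.154, 0.132, 0.0790 and 0.0920 in WT samples 1 to 6. In both genotypes samples 3 and 4 were the brightest, prors1 sample 5 was the dimmest of all, and the genotypes overlapped. The ratio of prors1 to WT was 1.44, 1.81, 1.73, 2.26, 0.843 and 1.71 for samples of the same number, so sample 5 was the exception to a higher deposited value in prors1. Over samples 1 and 2, 3 and 4, and 5 and 6, the mean array median was itself 2.29-, 2.61- and 1.81-fold higher in prors1.

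**Figure D1:**
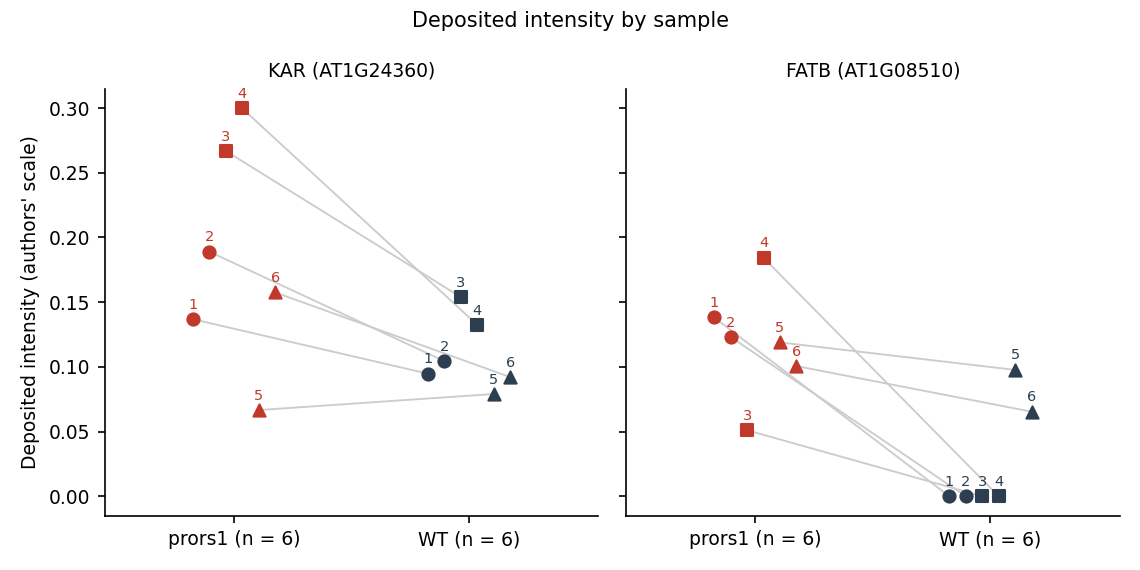
Deposited intensity (vertical axis, authors' scale) of KAR on the left and FATB on the right, in 6 prors1 and 6 WT samples, with each point numbered and grey lines joining samples of the same number. KAR ran from 0.0666 to 0.300 in prors1 and from 0.0790 to 0.154 in WT, while FATB was listed at 0 in WT samples 1 to 4 and in no prors1 sample.

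The place of KAR among all probes of its array was lower in every prors1 sample than in any WT sample. It stood at percentiles 20.8, 28.4, 30.8, 34.7, 17.9 and 34.2 of the array in prors1 samples 1 to 6, against 35.0, 37.0, 47.1, 42.6, 35.2 and 38.2 in WT samples 1 to 6. The genotypes came close without overlapping, with prors1 sample 4 just under WT sample 1. KAR thus stayed in the lower part of the intensity range on every array, and well above the probes listed at 0.

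After quantile scaling the KAR values were -3.49, -2.97, -2.83, -2.64, -3.77 and -2.67 on the log2 scale in prors1 samples 1 to 6, against -2.63, -2.53, -2.11, -2.29, -2.62 and -2.48 in WT samples 1 to 6. No value was at the floor and the genotypes did not overlap, as for 14.1% of all features with every prors1 value below every WT value. KAR averaged -3.06 ± 0.46 in prors1 and -2.44 ± 0.20 in WT (SD, n = 6 each). The difference was -0.62 ± 0.20 (SE, 95% interval -1.05 to -0.19), 1.54-fold lower in prors1, with an adjusted p of 0.0245 in limma over 3303 features. An exact two-sided permutation test of the 12 values gave p = 0.00216, the smallest that 6 against 6 allow. The permutation test takes the 12 samples as independent, which the likeness of samples 1 and 2, 3 and 4, and 5 and 6 puts in doubt. With these averaged, 3 values against 3 allow no p below 0.1 in such a test. KAR is among the 23.2% of features called lower, and 626 features (19.0%) had a difference as low or lower. In RNA of whole samples, fewer cells of a type and less of a transcript per cell cannot be told apart, and the part of the lower leaf markers in this result was not tested.

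**Figure D2:**
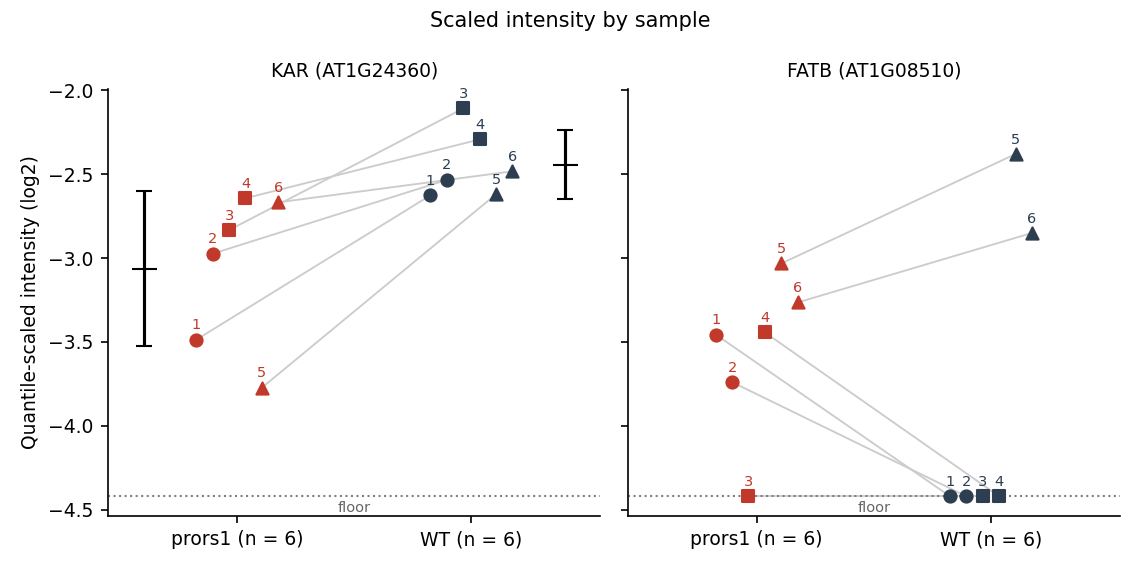
Quantile-scaled intensity (vertical axis, log2) of KAR and FATB in the same samples, with bars beside KAR for the mean and SD of each genotype and a dotted line at the floor of -4.42. All 6 KAR values of prors1 lie below the lowest WT value of -2.63, and the FATB values of WT split into 4 at the floor and 2 above every prors1 value.

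Paired by replicate number, KAR was lower in prors1 in 6 of 6 pairs. The differences were -0.86, -0.44, -0.73, -0.35, -1.15 and -0.19 for numbers 1 to 6, and an exact two-sided sign-flip test gave p = 0.0312, again the smallest possible with 6 pairs. The sign-flip test takes the 6 pairs as independent, which the likeness of samples 1 and 2, 3 and 4, and 5 and 6 puts in doubt. Neighbouring numbers differed in size, with the largest decrease in number 5 and the smallest in number 6. That gap came from prors1, where samples 5 and 6 were 1.11 apart, a gap that 76 of 2385 features never at the floor (3.19%) matched or exceeded, while WT samples 5 and 6 were 0.14 apart. Averaged over samples 1 and 2, 3 and 4, and 5 and 6, the differences were -0.65, -0.54 and -0.67, close to each other.

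**Figure D3:**
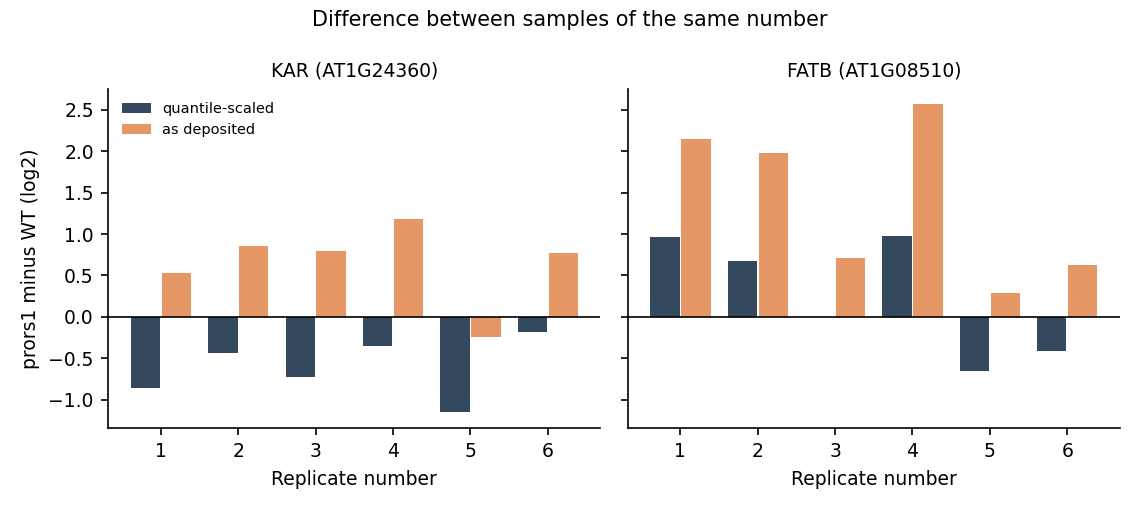
Difference between prors1 and WT (vertical axis, log2) for samples of the same replicate number (horizontal axis), after quantile scaling in dark bars and as deposited, with low values raised to the floor of that scale, in light bars. The dark KAR bars are all negative, from -1.15 to -0.19, and the dark FATB bars run from 0.98 in number 4 to -0.65 in number 5, with number 3 at 0 because both samples were at the floor.

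The size and the call of the KAR difference depended on how arrays were scaled. Cyclic loess gave -0.88 (adjusted p = 0.00403 in limma, where 21.7% of features were called lower). Division by array medians gave -0.50 with an adjusted p of 0.0879 in limma, where 30.5% of features were called lower and the KAR values of the genotypes overlapped. Without any scaling it was 0.65 (95% interval -0.064 to 1.36, adjusted p = 0.0973 in limma), which is -0.26 relative to the median feature and its shift of 0.91. Samples 1 and 2, 3 and 4, and 5 and 6 of a genotype tended to resemble each other, and the call was lost when they were averaged (adjusted p = 0.0798 in limma, 11.8% of features called lower) or kept as a random block (adjusted p = 0.163, 16.4% called lower). Of 18 fits with 1 sample or 1 number removed, 5 lost the call, those without prors1 sample 1, WT sample 3, or number 1, 2 or 3, with adjusted p of 0.0544 to 0.0648 in limma. It was lost as well without samples 1 and 2 of both genotypes (-0.60, adjusted p = 0.140 in limma) and without samples 3 and 4 (-0.66, adjusted p = 0.0665), and held without samples 5 and 6 (-0.59, adjusted p = 0.0447).

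FATB showed no common direction after scaling, and the WT samples were split. The deposited intensities were 0.138, 0.123, 0.0510, 0.184, 0.119 and 0.101 in prors1 samples 1 to 6, against 0, 0, 0, 0, 0.0977 and 0.0654 in WT samples 1 to 6. FATB was thus measured above 0 in 6 of 6 prors1 samples and in 2 of 6 WT samples, those numbered 5 and 6, while prors1 sample 3 lay below both of these. The sources used here do not say whether a listed 0 stands for no transcript or for a signal below background, so differences from these samples depend on the floor set for them, and no linear fold is given. The ratio of prors1 to WT was 1.22 for number 5 and 1.54 for number 6, where both samples had a value above 0.

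Zeros confined to WT were more frequent over the array than zeros confined to prors1. In counts chosen after the FATB values had been seen, 53 of 3439 probes (1.54%) were at 0 in at least 4 WT samples and in no prors1 sample, and 1 probe (0.0291%) was at 0 in at least 4 prors1 samples and in no WT sample. The exact pattern of FATB, 0 in WT samples 1 to 4 and above 0 elsewhere, was found for 4 probes, and FATB was the 1 with a single-gene annotation.

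Within its array, FATB stood at percentiles 21.2, 18.2, 9.22, 21.4, 27.4 and 23.8 in prors1 samples 1 to 6. In WT it stood at 40.5 and 30.4 in samples 5 and 6, above every prors1 sample, and among the probes listed at 0 in samples 1 to 4. The scaled values were -3.46, -3.74, -4.42, -3.44, -3.03 and -3.26 on the log2 scale in prors1 samples 1 to 6, against -4.42 in WT samples 1 to 4, -2.38 in WT sample 5 and -2.85 in WT sample 6. The floor held 1 of 6 prors1 values and 4 of 6 WT values, so the WT values cover both ends of the range and enclose all those of prors1.

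FATB did not pass the test after quantile scaling. The difference was 0.26 ± 0.40 (SE, 95% interval -0.60 to 1.12, n = 6 each, adjusted p = 0.634 in limma), an interval that takes in both a decrease and an increase of over 1.5-fold. By number, prors1 was above WT by at least 0.96, 0.68 and 0.98 in numbers 1, 2 and 4, where WT was at the floor, both samples were at the floor in number 3, and the differences were -0.65 and -0.41 in numbers 5 and 6 (exact two-sided sign-flip test, p = 0.438). Averaged over samples 1 and 2, 3 and 4, and 5 and 6, the differences were 0.82, 0.49 and -0.53, and the first and second of these depend on the floor. Without samples 5 and 6 of both genotypes every WT value left was the floor itself, so the difference of 0.66 and its call (adjusted p = 0.0385 in limma, where 22.5% of features were called higher) are set by the floor. Without samples 1 and 2 the difference was -0.022 (adjusted p = 0.995).

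On the values as deposited FATB was called higher in prors1, by 1.39 ± 0.36 on the log2 scale with WT samples 1 to 4 at a floor of 0.0311 (SE, 95% interval 0.60 to 2.17, adjusted p = 0.00509 in limma). On that scale 61.4% of all features were called higher and the median feature was 0.91 higher, so FATB stood 0.47 above the median feature. It did not pass after division by array medians (0.52, adjusted p = 0.351) or cyclic loess (0.32, adjusted p = 0.587). With the floor moved to the 1st percentile of positive values the difference was 1.13 (adjusted p = 0.284), and at the 10th percentile it was -0.082 (adjusted p = 0.818), so its size and sign followed the value given to the samples in which FATB was at the floor.

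**Figure D4:**
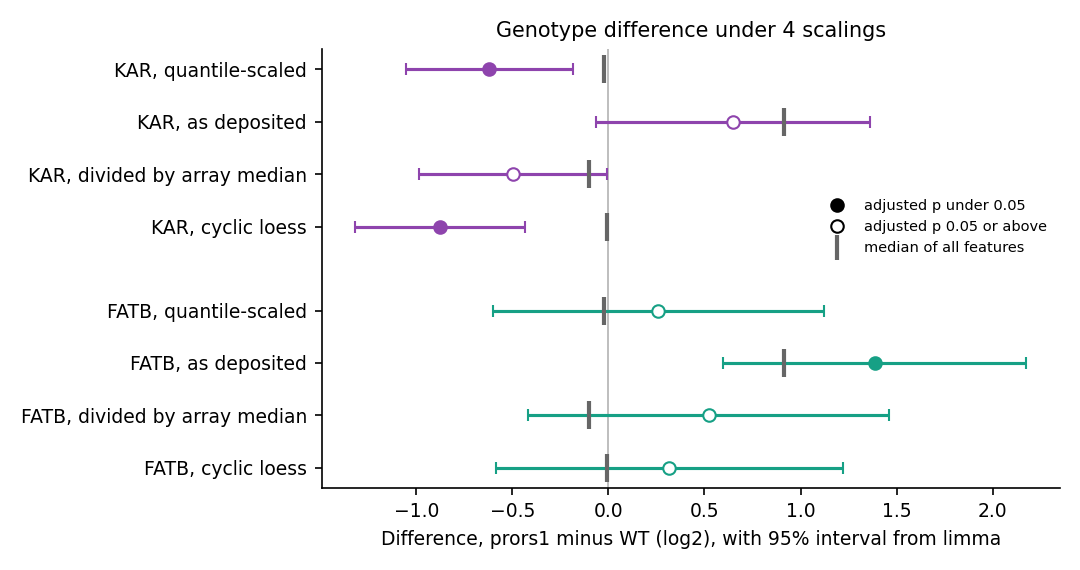
Difference between prors1 and WT (horizontal axis, log2) of KAR above and FATB below, with 95% intervals from limma, under 4 scalings; filled points passed an adjusted p of 0.05 and grey ticks mark the median of all features. All 4 use the floor at the 5th percentile of positive values. KAR lies left of the tick under each scaling, from -0.88 with cyclic loess to 0.65 as deposited. FATB lies right of it under each, from 0.26 to 1.39.

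With the floor at the 5th percentile, the 2 genes stood on opposite sides of the median feature under each of the 4 scalings. The side of FATB may depend on that floor. After quantile scaling its difference was -0.082 with the floor at the 10th percentile, where the median feature was not computed. The contrast between the 2 genes did not pass a test over all samples, and its size depends on the floor. The log2 ratio of KAR to FATB within an array, after scaling and with FATB raised to the floor in 5 samples, was -0.031, 0.77, 1.59, 0.80, -0.74 and 0.60 in prors1 samples 1 to 6, against 1.79, 1.89, 2.31, 2.13, -0.24 and 0.37 in WT samples 1 to 6. The ratio is a lower bound in WT samples 1 to 4 and in prors1 sample 3, where FATB was at the floor, so these have no order among themselves, and they lay above the 7 samples with FATB above the floor. The mean ratio differed by -0.88 between prors1 and WT (exact two-sided permutation test, p = 0.134, and p = 0.0625 for the 6 pairs in an exact sign-flip test). Of 18 fits with 1 sample or 1 number removed, 17 did not pass an exact permutation test (p up to 0.294). The exception was the fit without WT sample 5 (-1.20, exact permutation p = 0.0346). Without samples 1 and 2 of both genotypes the difference was -0.58 (exact permutation p = 0.486). Without samples 5 and 6, where every WT ratio is a bound, it was -1.25 (exact permutation p = 0.0286, the smallest possible). That p places the bound of prors1 sample 3 below those of WT, an order that the values do not give. All of these differences depend on the floor, and the permutation tests take the samples as independent.

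**Figure D5:**
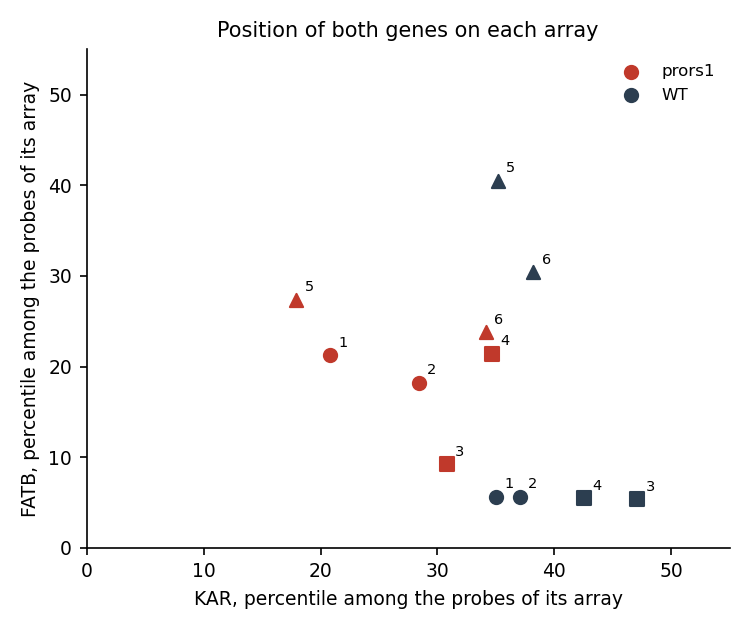
Percentile of KAR (horizontal axis) and of FATB (vertical axis) among the probes of each array, with prors1 and WT samples in different colours and numbered. The prors1 samples span 17.9 to 34.7 for KAR and 9.22 to 27.4 for FATB, while WT spans 35.0 to 47.1 for KAR and splits for FATB into samples 1 to 4 among the zeros and samples 5 and 6 at 40.5 and 30.4.

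Few other genes of the pathway could be read. Of 65 further loci of acetyl-CoA supply, carboxylation, chain extension, termination, desaturation, plastid membrane lipids and the use of exported chains, 2 had a single-gene probe and 1 was tested, and it was called in neither direction. That gene, AT3G56130, is related to the biotin carrier subunit of acetyl-CoA carboxylase, the enzyme that makes the malonyl units for chain extension. Its deposited intensity ran from 0.00224 to 0.114 in prors1 and from 0 to 0.0418 in WT, and 4 prors1 and 3 WT values were at the floor. The limma difference was -0.20 ± 0.23 (SE) with an adjusted p of 0.518. The stearoyl-acyl carrier protein desaturase family gene AT5G16230 was at the floor on all arrays and was listed at 0 in 6 prors1 and 5 WT samples. A further 11 of the 65 loci were listed only on probes with several genes and are not analysed here.

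The single-gene features most like KAR over the 12 samples, among 459 never at the floor, were AT2G47830 (Pearson r = 0.85), AT2G40980 (0.81), AT3G26580 (0.81), AT1G13370 (0.81) and SECE1 (AT4G14870, 0.78), a subunit of the thylakoid Sec translocase. Their deviations from the genotype means correlated with those of KAR at 0.50 to 0.76, so part of the likeness lay within a genotype. Their differences ran from -0.76 for AT2G40980 to -0.37 for AT2G47830, a direction that the choice by likeness to KAR favours. The features most like FATB, among 460, were AT2G36480 (r = 0.86), AT4G31470 (0.82), AT5G38750 (0.79), CRR21 (AT5G55740, 0.78), a pentatricopeptide repeat protein of plastid RNA editing, and AT1G55440 (0.77). Their differences ran from -0.069 to 0.30. These correlations are descriptions over 12 samples that share arrays and scaling, and those with FATB rest on 5 values at the floor.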

How the data were processed

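The deposited table holds linear intensities per probe and sample, and the sources used here do not say how the authors labelled, scanned, background-corrected or scaled them. Probes were named from the platform annotation, and the identifiers of 690 of 692 single-gene probes were found in the TAIR10.1 gene table. Coordinates are left out, since no build is named for the probes. Arrays were quantile-scaled, since array medians differed by up to 3.28-fold. The floor was the 5th percentile of all positive scaled values and held 13.7% of values, log2 was taken, rows of 1 locus were averaged and 135 features at the floor throughout were left out. All features were fitted with limma 3.58.1 in R 4.3.3 with genotype as the one term, two-sided p-values were adjusted by Benjamini-Hochberg over all features, and 0.05 was the threshold. The limma fit was also run on simulated data. No result of that run is used here for the scaling, the floor or the likeness of samples. Precision is limited by the number of arrays. The members, lists, tests and alternatives were chosen with earlier results of these data known. Genes named were the 2 members, measured genes of the lists and, for each member, the 5 single-gene features never at the floor with the highest Pearson r.

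Over 2385 features, prors1 and WT samples sharing a number deviated together from their genotype means (r of 0.346 to 0.489). Samples with different numbers were not compared across genotypes, so pairing by number cannot be told apart from likeness of samples 1-2, 3-4 and 5-6. The labels do not say what a number marks. Within a genotype, SDs of log2 ratios were 0.355 to 0.449 between samples 1-2, 3-4 or 5-6 and 0.428 to 0.762 between other samples.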

Additional observations from a re-analysis of the deposited data

How the results depend on the processing

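KAR was lower in prors1 under all alternatives run except the values as deposited (0.65). It lost its call there, with division by array medians (-0.50), and with samples 1-2, 3-4 and 5-6 averaged or as a random block (-0.62 in both). The call was also lost without samples 1 and 2 (-0.60) or 3 and 4 (-0.66) of both genotypes. Of 18 fits with 1 sample or 1 number removed, 5 lost it as well. Leaving out samples moved KAR between -0.71 and -0.48, FATB between -0.022 and 0.66 and the KAR to FATB ratio between -1.25 and -0.58. The value of -0.022 for FATB came without samples 1 and 2. FATB was also negative with the floor at the 10th percentile (-0.082). It was called as deposited (1.39) and without samples 5 and 6 of both genotypes (0.66), where the floor sets the difference. No value exists for FATB without the dimmest 25% of features, where it was left out. With the replicate block KAR kept its call (-0.62, adjusted p = 0.00863 in limma), FATB did not pass (0.26, adjusted p = 0.422) and 1664 features were called. Over the whole array 1414 features were called, against 2212 as deposited, 749 with samples averaged and 915 to 1572 with samples left out. As deposited the calls were 2030 higher and 182 lower, with arrays divided by their medians 552 and 1003, and after quantile scaling 649 and 765. The cause of these differences was not tested. Both probes lie below the median of every array, and each gene rests on 1 single-gene probe. The further probe that lists FATB with other genes cannot be assigned to FATB and was not used. Leaving out pairs of samples was chosen after seeing the data.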

Other observations

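In 34 sets of 6 values of 1 genotype, no single sample stood far from the others (0 of 34). The sets were those of KAR, FATB and their ratio and of the 10 genes most like them. A rate of about 1 in 20 holds for independent sets of normal values. These sets are related and some hold values at the floor, so the count is not set against that rate. A check of single samples cannot flag the split of FATB in WT.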
